A study of Canis lupus familiaris with 15 samples.

Results

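CYP17A1 (ENSCAFG00000010279) and HSD3B7 (ENSCAFG00000016770) are 2 of the 23630 genes counted by RNA-Seq in the corpus luteum (CL) of the dog and were taken from the count table by their Ensembl identifiers. The mean CYP17A1 mRNA level was highest in luteal regression, followed by mid-gestation, natural prepartum luteolysis and antigestagen-induced luteolysis, although neighbouring groups overlapped and edgeR called it in no contrast. Its calls depended on the test. The Wald test of DESeq2, the tool used in the study, called it in luteal regression over luteolysis, luteal regression over antigestagen and mid-gestation over antigestagen. With shrinkage of the log2 ratios, DESeq2 also called it in luteolysis over antigestagen. The means of HSD3B7 mRNA were ordered almost the other way round: the level was highest in natural luteolysis, followed by antigestagen, mid-gestation and luteal regression. The level of HSD3B7 in all 8 luteolytic dogs, natural and induced, lay above its level in all 7 other dogs. Such a split, in either direction, was found for 0.141% of the genes in the fit, and it was looked at after the values were seen.

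CYP17A1 encodes the cytochrome P450 of the endoplasmic reticulum that hydroxylates pregnenolone and progesterone (P4) at carbon 17 and then cleaves the side chain, which opens the way to androgens and, through aromatase, to oestrogens. The enzyme draws its electrons from P450 oxidoreductase, and in most mammals it is the hallmark of theca cells, Leydig cells and the adrenal cortex. HSD3B7 belongs to the 3β-hydroxysteroid dehydrogenase (3βHSD) family, but it acts on 7α-hydroxylated sterols, the early intermediates of bile acid synthesis, and it also inactivates 7α,25-dihydroxycholesterol, a sterol that guides immune cells through the receptor GPR183. It is not the 3βHSD that converts pregnenolone to P4.

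Every dog was a healthy cross-breed bitch aged 2 to 8 years, and gave 1 library from CL trimmed of the surrounding ovary. The 5 mid-gestation dogs were operated on at days 35 to 40 after ovulation, and the 3 luteolysis dogs once P4 in plasma, measured every 6 h from day 58 of pregnancy, had been below 2 to 3 ng/ml in 3 consecutive measurements. The 5 antigestagen dogs received aglepristone, a blocker of the P4 receptor, at mid-gestation (2 doses of 10 mg/kg given 24 h apart; CL collected 24 h after the second dose, days 40 to 45). The 2 luteal regression dogs were not pregnant and were sampled at day 65, so that group differs from the others in both pregnancy and day, and neither of these can be told apart from the group itself. Library totals lay between 8558743 and 26284315 counts (median 18313707) and gave 458 to 16700 reads for CYP17A1 and 627 to 2779 reads for HSD3B7 in each dog. In the RefSeq annotation of the dog assembly UU_Cfam_GSD_1.0, neither gene overlaps another gene. Which dogs were operated on at which of the 2 sites of the study, Giessen and Ankara, is not given, so site and group could not be separated. Levels are given as CPM, the count divided by the library size in units of 1000000 counts after TMM scaling (trimmed mean of M-values).

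In luteal regression, CYP17A1 mRNA reached 590 CPM in Lissy and 857 CPM in Mara, with a mean of 723 ± 189 (SD, n = 2). At mid-gestation the 5 dogs had 268 CPM (Turgay), 358 CPM (Kurtulus), 416 CPM (Nescafe), 514 CPM (Dardanel) and 809 CPM (Gold), with a mean of 473 ± 208 (SD, n = 5). The 2 groups overlapped, since the level in Gold lay between those of both luteal regression dogs. During luteolysis CYP17A1 stood at 334 CPM in Amy, 264 CPM in Kimba and 111 CPM in Senta, with a mean of 236 ± 114 (SD, n = 3). After antigestagen it was 27.1 CPM in Seran, 56.4 CPM in Zeynep, 90.9 CPM in Citir, 110 CPM in Suzan and 205 CPM in Birnur, with a mean of 97.9 ± 67.7 (SD, n = 5). Every antigestagen dog was below every mid-gestation dog (1.24% of all genes separated these groups), and the luteolysis dogs spanned the gap between both groups and overlapped both. All neighbouring groups in this order therefore overlapped, and only groups further apart separated. In whole CL tissue, a smaller number of expressing cells and less mRNA per cell cannot be told apart.

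HSD3B7 mRNA was measured at 38.1 CPM in Lissy and 39.9 CPM in Mara, with a mean of 39.0 ± 1.29 (SD, n = 2) in luteal regression. The mid-gestation dogs had 52.8 CPM (Turgay), 55.8 CPM (Kurtulus), 61.8 CPM (Gold) and 65.4 CPM (both Nescafe and Dardanel), with a mean of 60.2 ± 5.73 (SD, n = 5). These ranges did not overlap, as was the case for 30.5% of all genes in groups this small. The antigestagen dogs followed with 69.7 CPM (Citir), 74.0 CPM (Birnur), 76.0 CPM (Suzan), 107 CPM (Seran) and 117 CPM (Zeynep), with a mean of 88.8 ± 21.7 (SD, n = 5). Amy had 95.7 CPM, Kimba 98.2 CPM and Senta 161 CPM during luteolysis, with a mean of 118 ± 37.0 (SD, n = 3). The last 2 groups overlapped, and together they ranged from 69.7 to 161 CPM against 38.1 to 65.4 CPM in the other 7 dogs. Such a complete split of the 8 luteolytic dogs from the other 7 was found for 21 of the 14922 genes in the fit (0.141%), 14 of them (0.0938%) in the direction of HSD3B7 and 7 (0.0469%) in the opposite one. This split was looked at after the values were seen. It was the same in CPM of the unscaled total count, with 73.3 to 155 in the luteolytic and 46.8 to 63.8 in the other dogs. CYP17A1 was not among those genes, since the luteolytic dogs ranged from 27.1 to 334 CPM and the others from 268 to 857 CPM.

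**Figure D1:**
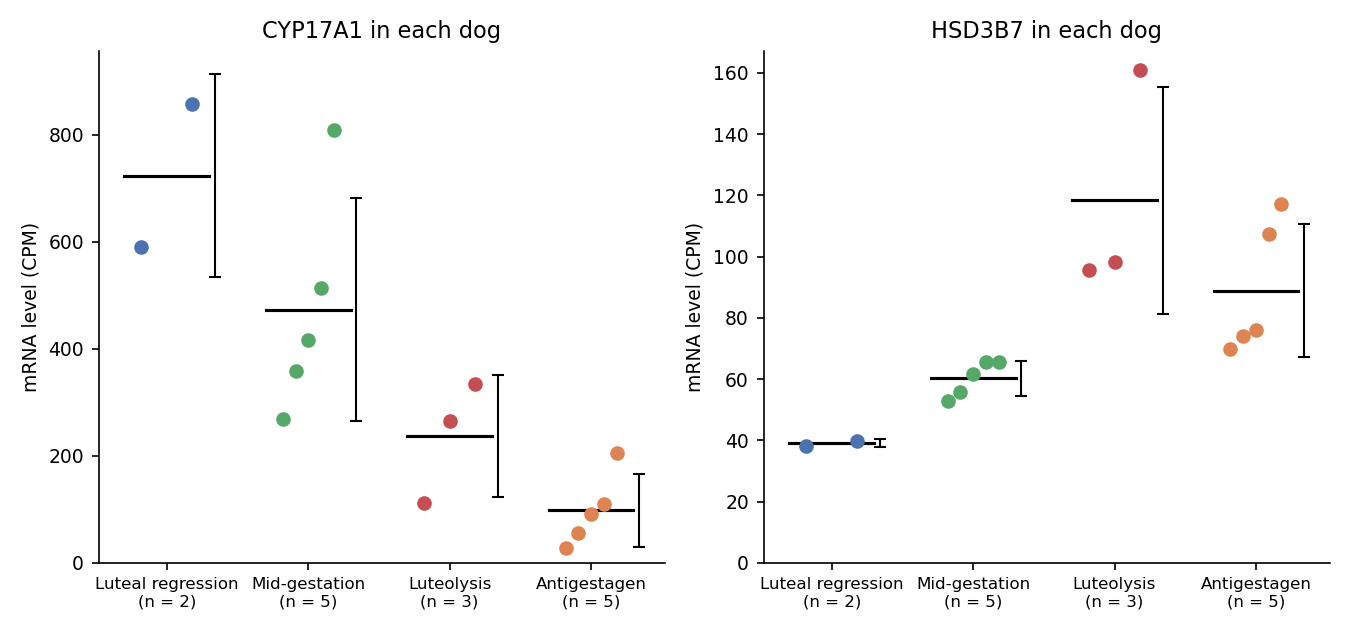
CPM (linear axes) of CYP17A1 (left) and HSD3B7 (right) in each of the 15 dogs by group, with the group mean (horizontal line) and ± SD (vertical bar beside it). The mean of CYP17A1 was 723 CPM in luteal regression and 97.9 CPM after antigestagen, whereas HSD3B7 had its lowest mean, 39.0 CPM, in luteal regression and its highest, 118 CPM, in luteolysis.

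The genes also differed in how much the dogs of a group varied. The SD of log2 CPM of CYP17A1 was 0.60 at mid-gestation, 0.84 in luteolysis and 1.09 after antigestagen, where the highest dog had 7.55 times the level of the lowest. These spreads exceeded those of 76.5%, 83.6% and 91.4% of the genes in the fit, respectively. For HSD3B7 the SD was 0.14 at mid-gestation, smaller than in all but 8.16% of genes, 0.34 after antigestagen and 0.42 in luteolysis, near the median of all genes in the latter (0.41). The 2 luteal regression dogs had an SD of 0.38 for CYP17A1 and 0.048 for HSD3B7. The contrasts that follow share groups of dogs, so their results are not independent of each other.

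Contrast: “luteal regression over luteolysis”. This contrast sets the slow regression of the non-pregnant CL against the rapid prepartum breakdown. HSD3B7 was 3.03-fold lower in luteal regression than in luteolysis (log2 ratio -1.60, SE 0.28, 95% interval -2.19 to -1.01) and was a DEG (adjusted p = 0.0367, edgeR quasi-likelihood F-test), where a DEG is a gene with p below 0.01 and adjusted p below 0.1. It ranked 13 among 14768 genes by p, of which 5.11% were DEG and 3.58% were DEG with the lower level in luteal regression. CYP17A1 was 3.06-fold higher in luteal regression (log2 ratio 1.61, SE 0.64, 95% interval 0.25 to 2.98), but it was no DEG (adjusted p = 0.189, edgeR). In both genes the dogs of the 2 groups did not overlap, as was the case for 38.1% of all genes with groups this small. The HSD3B7 call depended on the fit: the adjusted p was 0.117 without Senta, 0.372 without Lissy and 0.327 without Mara, and 0.225 when only these 2 groups were fitted, a fit in which no gene at all was called against 754 with all dogs.

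Contrast: “mid-gestation over luteolysis”. Here the functional CL of pregnancy is compared with the CL at the prepartum P4 decline, so luteolysis and the later stage of pregnancy cannot be told apart. HSD3B7 was 1.96-fold lower at mid-gestation (log2 ratio -0.97, SE 0.21, 95% interval -1.41 to -0.54) and again a DEG (adjusted p = 0.0193, edgeR). DEG made up 8.16% of the 14669 genes tested, and 5.73% were DEG that were lower at mid-gestation. The lowest luteolysis dog (95.7 CPM) was above the highest mid-gestation dog (65.4 CPM), a separation shown by 9.76% of genes. Without Senta, the luteolysis dog with the highest HSD3B7, the log2 ratio was -0.67 and the adjusted p 0.176, and the gene was no longer a DEG. CYP17A1 was 2.00-fold higher at mid-gestation (log2 ratio 1.00, SE 0.54, 95% interval -0.14 to 2.14), but it was no DEG (adjusted p = 0.311, edgeR). Turgay at mid-gestation (268 CPM) lay below Amy in luteolysis (334 CPM).

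Contrast: “mid-gestation over antigestagen”. Both groups were pregnant, and this contrast addresses the withdrawal of P4 signalling at mid-term, although the treated dogs were sampled later (days 40 to 45 against 35 to 40). CYP17A1 was 4.83-fold higher at mid-gestation than after antigestagen (log2 ratio 2.27, SE 0.47, 95% interval 1.27 to 3.27). All 5 mid-gestation dogs (268 to 809 CPM) were above all 5 antigestagen dogs (27.1 to 205 CPM), which held for 1.24% of genes. By its p-value the gene ranked 10 of 14399, but its adjusted p in edgeR was 0.305 and it was no DEG. No gene reached the DEG criteria in this contrast (0%), while 980 genes had an unadjusted p below 0.05. By the Wald test of DESeq2, the tool used in the study, CYP17A1 had an adjusted p of 0.000585 and a log2 ratio of 2.27, and 87 genes (0.604%) were DEG. The size of the difference was therefore the same in both tools, and its call was not. With each dog left out in turn, the log2 ratio stayed between 1.98 and 2.73 and the adjusted p of edgeR between 0.211 and 0.639.

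HSD3B7 was 1.47-fold lower at mid-gestation than after antigestagen (log2 ratio -0.56, SE 0.18, 95% interval -0.95 to -0.17). The dogs did not overlap (as for 1.24% of genes), but the gap between the highest mid-gestation dog (65.4 CPM) and the lowest antigestagen dog (69.7 CPM) was small. It was no DEG (adjusted p = 0.543 in edgeR), nor under any of the alternative tests, scalings and filters, where its adjusted p lay between 0.249 and 0.658.

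Contrast: “luteolysis over antigestagen”. The natural and the induced form of luteolysis are set side by side here. CYP17A1 was 2.41-fold higher in natural luteolysis (log2 ratio 1.27, SE 0.51, 95% interval 0.19 to 2.35), with an adjusted p of 0.200 in edgeR. HSD3B7 was 1.33-fold higher in natural luteolysis (log2 ratio 0.41, SE 0.21, 95% interval -0.03 to 0.86; adjusted p = 0.307 in edgeR). Without Senta, the latter log2 ratio was 0.12 (adjusted p = 0.917), and with limma-voom that of CYP17A1 was 0.34 (adjusted p = 0.667). DESeq2 with shrinkage of the log2 ratios called CYP17A1 (log2 ratio 1.00, adjusted p = 0.0895, Wald test). In that run 1471 of the 14473 genes were DEG. The paper also reports higher CYP17A1 expression in natural luteolysis than after antigestagen. The groups overlapped in both genes, where 7.74% of all genes separated completely and 4.75% were DEG. Senta, with 111 CPM of CYP17A1, was within the antigestagen range, and Seran and Zeynep, with 107 and 117 CPM of HSD3B7, were within the luteolysis range.

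The remaining pairs involve the non-pregnant dogs. In the contrast “luteal regression over antigestagen” the differences of CYP17A1 were the largest of all 6 contrasts, 7.38-fold (log2 ratio 2.88, SE 0.55, adjusted p = 0.140 in edgeR), and HSD3B7 was 2.28-fold lower in luteal regression (log2 ratio -1.19, SE 0.26, adjusted p = 0.149 in edgeR). They ranked 8 and 32 of 14578 genes by p, and in both the dogs did not overlap, like 29.7% of all genes. edgeR called no gene here (0%; 2496 genes with an unadjusted p below 0.05), whereas the DESeq2 Wald test called 920 genes (6.31%), with adjusted p values of 0.000397 for CYP17A1 and 0.00225 for HSD3B7. DESeq2 also called CYP17A1 in “luteal regression over luteolysis” (adjusted p = 0.0926), where 10.6% of genes were DEG by that tool. In “luteal regression over mid-gestation” CYP17A1 was 1.53-fold higher (log2 ratio 0.61, SE 0.58, 95% interval -0.61 to 1.84, adjusted p = 0.619 in edgeR) and its dogs overlapped. This log2 ratio was 0.32 without Mara and 0.93 without Gold. HSD3B7 was 1.54-fold lower in luteal regression than at mid-gestation (log2 ratio -0.63, SE 0.25, adjusted p = 0.325 in edgeR) without overlap, as 30.5% of genes, and edgeR called no gene (0%; 2073 genes with an unadjusted p below 0.05). Scaled by the total count alone, which moved the median of all genes by 0.32, the log2 ratio of HSD3B7 was -0.30.

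**Figure D2:**
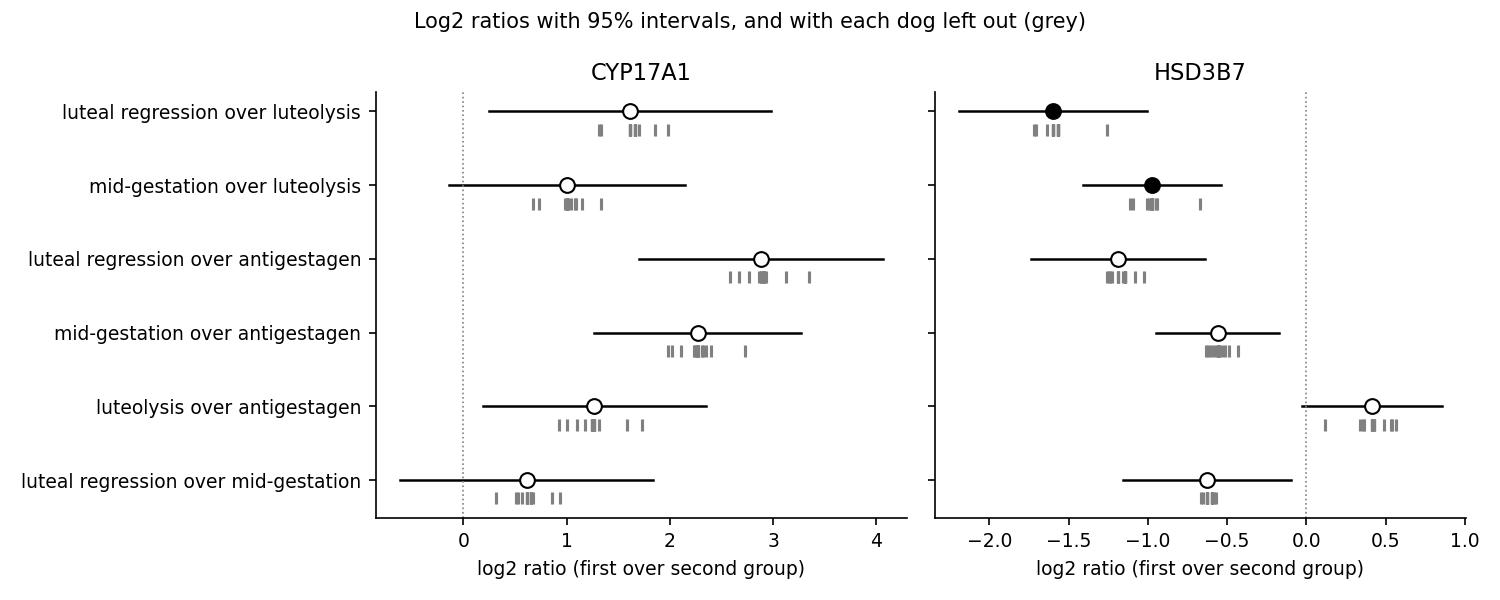
Log2 ratio (circle) of each gene in the 6 contrasts with its 95% interval (line). Filled circles are DEG, and grey ticks below are the values with each of the 15 dogs left out in turn. HSD3B7 was a DEG at -1.60 and -0.97, and no left-out dog moved any of the values of either gene across 0.

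Whether natural luteolysis, set against luteal regression, changed the 2 genes in another way than antigestagen, set against mid-gestation, was tested as the difference of these effects. For CYP17A1 the difference was 0.66 on the log2 scale (SE 0.79, 95% interval -1.03 to 2.35; adjusted p = 0.771 in edgeR), so neither direction of a difference could be told from none. For HSD3B7 the difference was 1.04, with the larger value in the natural form (SE 0.32, 95% interval 0.35 to 1.73), but with an adjusted p of 0.233 this was no DEG. This value also holds the difference between the comparison groups. The log2 ratio of HSD3B7 was -0.63 in “luteal regression over mid-gestation” and 0.41 in “luteolysis over antigestagen”. In this comparison edgeR called no gene (0%), and 1869 genes had an unadjusted p below 0.05.

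Because both genes were read from the same library, the ratio of their counts does not depend on the scaling of the libraries. The lengths of the transcripts cancel when the ratio is compared between dogs, but not within a dog, so the ratio says nothing of which mRNA was more abundant. In luteal regression the count of CYP17A1 divided by that of HSD3B7 was 21.5 in Mara and 15.5 in Lissy. At mid-gestation it was 13.1 in Gold, 7.85 in Dardanel, 6.43 in Kurtulus, 6.36 in Nescafe and 5.07 in Turgay. All luteolytic dogs were lower. Natural luteolysis gave 3.49 in Amy, 2.69 in Kimba and 0.689 in Senta. After antigestagen the ratio was 2.76 in Birnur, 1.45 in Suzan, 1.30 in Citir, 0.482 in Zeynep and 0.252 in Seran. The 3 lowest ratios thus belonged to dogs of both kinds of luteolysis (0.252 to 0.689), and no luteolytic dog (at most 3.49) reached the lowest of the other dogs (5.07). The ratio was formed after the values were seen and is given without a test. HSD3B7, its denominator, already split these dogs by itself, so the split of the ratio is not a separate result. How many other pairs of genes split in this way was not counted.

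**Figure D3:**
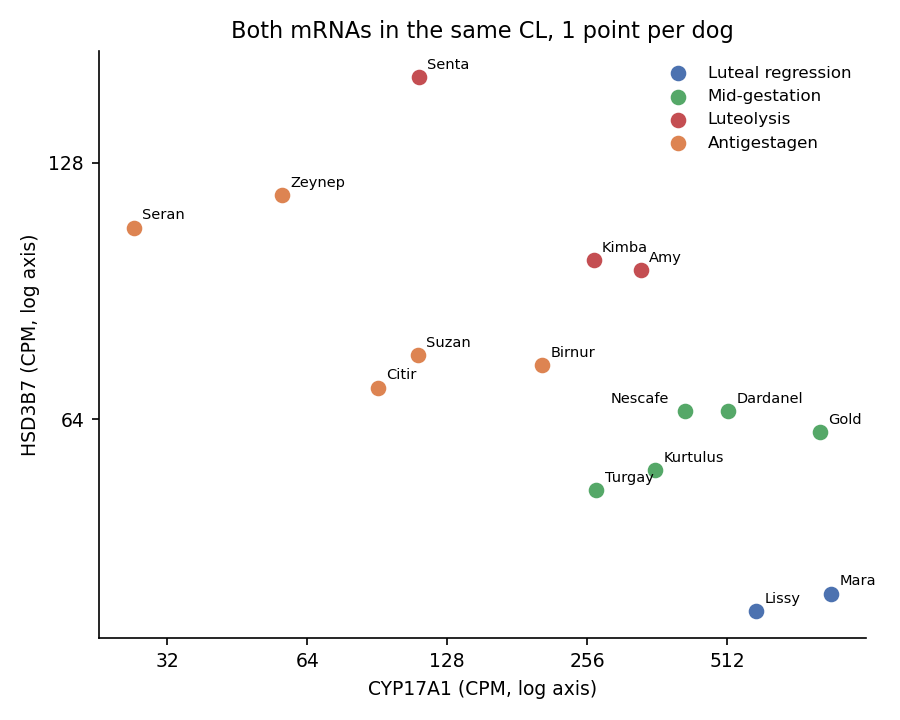
CPM of CYP17A1 (horizontal) against HSD3B7 (vertical), both on log axes to the base 2, with 1 point per dog coloured by group. The luteal regression dogs stand at the lower right, Seran and Zeynep at the upper left and Senta at the top, and no mid-gestation dog (52.8 to 65.4 CPM of HSD3B7) reaches the level of an antigestagen dog (69.7 to 117 CPM).

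Whether dogs of the same group that were high in one mRNA were low in the other was tested next. After the group means were subtracted, log2 CPM of both genes gave Pearson r = -0.61 (permutation p = 0.0757, 0.0779 after adjustment over both coefficients) and Spearman rho = -0.59 (permutation p = 0.0779), both two-sided over n = 15 dogs. Neither passed 0.05. Without the 2 dogs farthest from the median of CYP17A1, the antigestagen dogs Seran and Zeynep, r was -0.33 (permutation p = 0.555, n = 13). Leaving out the extremes of 1 of the 2 genes tends to weaken r in any case, and no other pair of dogs was left out. How far the relation rested on these dogs can therefore not be told. Scaled by the total count alone, r was -0.47 (permutation p = 0.123).

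Seran and Zeynep, lowest in CYP17A1 and highest in HSD3B7 of their group, also stood apart in other cell markers. INSL3, the insulin-like peptide of theca and Leydig cells, was 3187 CPM in Seran and 1951 CPM in Zeynep against 287 CPM in Citir, 718 CPM in Birnur and 817 CPM in Suzan. The 2 dogs with the least CYP17A1 of this group therefore had the most INSL3, although both genes are known from theca cells. The summed level of 5 of 12 macrophage markers (AIF1, ITGAM, C1QB, C1QC and MRC1) was 1013 CPM in Seran and 840 CPM in Zeynep, and 344 to 532 CPM in the other antigestagen dogs. It ranged from 322 to 794 CPM at mid-gestation, from 349 to 425 CPM in luteolysis and from 160 to 203 CPM in luteal regression, where HSD3B7 was also lowest. The sum mixes markers that differed in opposite directions between mid-gestation and luteolysis. The means there were 211 and 106 CPM for C1QB and 197 and 106 CPM for C1QC, but 96.7 and 142 CPM for MRC1. They were 13.0 and 16.2 CPM for AIF1 and 12.4 and 13.0 CPM for ITGAM. Within luteolysis the order was not that of the macrophage sum: Senta, with the highest HSD3B7, had the lowest sum (349 CPM). Of the 4 of 9 T and NK cell markers that could be followed, GZMB, a granule protease, was 206 CPM in Kimba, 110 CPM in Senta and 0.676 CPM in Amy, while HSD3B7 was alike in Amy and Kimba. GZMB was called lower at mid-gestation than in luteolysis (log2 ratio -5.68, SE 0.96, adjusted p = 0.00890 in edgeR), whereas CD2 (log2 ratio 1.65, adjusted p = 0.0364, edgeR) and GZMA (1.80, adjusted p = 0.0631) were called higher at mid-gestation, and CD3E was not called. None of these markers was at 0 in any dog. Other marker lists also moved in the contrasts in which HSD3B7 was a DEG. Of all genes tested, 3.58% were called lower in luteal regression than in luteolysis. At mid-gestation 5.73% were called lower and 2.43% higher than in luteolysis. These shares stand behind the marker counts, also those of the T and NK cells. The markers that could be followed had been listed by the study for differences on these dogs. Larger shares among them are therefore not read as a result. The 3 of 7 neutrophil markers that could be followed summed to 2.16 to 7.63 CPM in luteal regression and 8.03 to 92.2 CPM in luteolysis. They summed to 8.50 to 42.2 CPM at mid-gestation and 20.6 to 44.5 CPM after antigestagen. In luteal regression 1 of the 3 was called lower than in luteolysis, and none was called in “mid-gestation over luteolysis”. The 4 of 7 endothelial markers that could be followed summed to 295 to 314 CPM in luteal regression, 279 to 755 CPM at mid-gestation, 444 to 876 CPM in luteolysis and 490 to 1004 CPM after antigestagen. Of these, 2 were called lower in luteal regression (PECAM1 and TEK) and 1 at mid-gestation (PECAM1) than in luteolysis. The 5 of 10 fibroblast and pericyte markers summed to 1906 to 4582 CPM in luteolysis, 3694 to 14924 CPM at mid-gestation, 5368 to 7041 CPM in luteal regression and 3378 to 9225 CPM after antigestagen, and 3 of them (CD248, COL1A1 and COL3A1) were called higher at mid-gestation than in luteolysis. Of the macrophage markers 2 (ITGAM and MRC1) were called lower in luteal regression than in luteolysis. No marker of liver or adrenal cortex could be paired with an identifier. The part of all these cells in the levels of CYP17A1 and HSD3B7 was not tested.

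PRLR, the prolactin receptor, was the one marker of steroidogenic luteal cells out of 9 that could be paired with an identifier, and it was present in all dogs (65.8 to 175 CPM). Symbols could be paired with identifiers only for 2970 genes, those that the study listed for its own contrasts on these dogs. STAR, CYP11A1, HSD3B1, HSD3B2, CYP19A1, the P450 oxidoreductase gene POR, CYB5A, CYP7B1 and CYP27A1 were therefore not analysed here. Likewise, the counts below cover the part of each list that could be paired, which was chosen by differences on these same dogs and is not independent evidence of a direction. Over all genes tested, 2.43% were DEG with the higher and 5.73% with the lower level in “mid-gestation over luteolysis”, 1.52% and 3.58% in “luteal regression over luteolysis”, and 3.12% and 1.62% in “luteolysis over antigestagen”. These shares stand behind every count of called list members that follows, and since the members were listed by the study for differences on these dogs, larger shares among them are not read as a result.

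Of the 3βHSD family and its relatives, HSD3B7 and SDR42E1 could be followed. SDR42E1, a relative of the family, had 11.3 to 17.0 CPM at mid-gestation and 17.7, 24.0 and 45.3 CPM in Amy, Kimba and Senta, and like HSD3B7 it was a DEG in “mid-gestation over luteolysis” (log2 ratio -1.07, SE 0.27, adjusted p = 0.0385, edgeR). It did not share the low level of HSD3B7 in luteal regression, where it measured 24.2 CPM in Lissy and 21.3 CPM in Mara.

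Of the list of oxysterols and bile acid synthesis, the route HSD3B7 serves, 4 of 19 genes could be followed, and they moved in both directions. Among these 4, CYP27B1 acts on vitamin D rather than in that route. It is the gene counted as lower at mid-gestation and, with CH25H, 1 of the 2 counted as lower in luteal regression. The means of CYP39A1 and CYP46A1 were 40.5 and 3.73 CPM in luteal regression against 35.0 and 4.85 CPM in luteolysis. In “mid-gestation over luteolysis” 2 of 4 were higher and 1 lower at mid-gestation (8.16% of all genes were DEG), and in “luteal regression over luteolysis” 2 of 4 were lower and none higher in luteal regression (5.11% of all genes were DEG). CYP39A1, the 7α-hydroxylase of 24-hydroxycholesterol, was higher at mid-gestation (log2 ratio 0.72, SE 0.23, adjusted p = 0.0844), and so was CYP46A1, the 24-hydroxylase of cholesterol (1.58, SE 0.41, adjusted p = 0.0445). CH25H, which makes 25-hydroxycholesterol, was lower in luteal regression than in luteolysis (-2.80, SE 0.84, adjusted p = 0.0939), with 2.55, 8.70 and 13.9 CPM in Amy, Kimba and Senta. CYP27B1, the 1α-hydroxylase of vitamin D, was lower at mid-gestation than in luteolysis (-3.96, SE 0.73, adjusted p = 0.0121), but Kimba (24.1 CPM) and Senta (12.9 CPM) carried it, and Amy had 0.375 CPM, within the range of the other groups (0.359 to 1.26 CPM).

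Downstream of CYP17A1, in the list of androgens, oestrogens and corticosteroids, 4 of 20 genes could be followed, with 1 called higher at mid-gestation than in luteolysis (2.43% of all genes) and 1 called lower in luteal regression than in luteolysis (3.58% of all genes). HSD11B2, which inactivates cortisol, was higher at mid-gestation (139 to 325 CPM) than in luteolysis (42.7 to 139 CPM), with a log2 ratio of 1.46 (SE 0.39, adjusted p = 0.0502, edgeR). HSD17B12, known mainly for fatty acid elongation, was lower in luteal regression (133 and 159 CPM) than in luteolysis (247 to 476 CPM), with a log2 ratio of -1.31 (SE 0.37, adjusted p = 0.0873, edgeR). No electron donor of microsomal P450 enzymes was called among the 2 that could be followed, CYB5R2 and CYB5R3.

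SULT1E1, the sulfotransferase that inactivates oestrogens, had log2 ratios of the same sign as CYP17A1 in the 5 contrasts in which it was tested, though at very low levels. It measured 0.731 to 1.36 CPM in the mid-gestation and luteal regression dogs, 0.177 to 0.436 CPM after antigestagen, and 0.395 and 0.058 CPM in Kimba and Senta. In Amy it had 0 reads, which at this depth allows up to 0.225 CPM (3 reads, counting error only). It was a DEG in “mid-gestation over luteolysis” (log2 ratio 2.61, SE 0.70, adjusted p = 0.0496) and in “luteal regression over luteolysis” (2.79, SE 0.79, adjusted p = 0.0833). In the conjugation list 2 of 3 genes were called higher at mid-gestation than in luteolysis (2.43% of all genes), the other being UGT1A6, which varied from 1.55 CPM in Kurtulus to 103 CPM in Dardanel at mid-gestation. CYP2C21, a hepatic-type P450, was the only one called of the 3 genes followed from the list of P4 breakdown. The others were AKR1B1 and AKR1E2. CYP2C21 was higher at mid-gestation and in luteal regression than in luteolysis (1.39 to 2.85 CPM). At mid-gestation Gold had 72.7 CPM and the other dogs of that group 4.82 to 6.89 CPM.

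Upstream of both enzymes, 7 of 31 genes of cholesterol uptake, storage and synthesis could be followed. In “luteal regression over luteolysis” 1 was higher (1.52% of all genes) and 2 were lower (3.58%) in luteal regression, and in “mid-gestation over luteolysis” 1 was lower (5.73%) at mid-gestation. VLDLR, a lipoprotein receptor, was higher in luteal regression (25.9 and 33.3 CPM) than in luteolysis (7.96 to 13.9 CPM, adjusted p = 0.0483). CYP51A1, the 14-demethylase of lanosterol, was lower there (39.2 and 47.5 against 109 to 181 CPM), with a log2 ratio of -1.70 (SE 0.49, adjusted p = 0.0894). INSIG2, a brake on cholesterol synthesis, shared the DEG calls of HSD3B7, being lower than in luteolysis both in luteal regression (-0.92, SE 0.27, adjusted p = 0.0915) and at mid-gestation (-0.86, SE 0.21, adjusted p = 0.0324).

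Among receptors and regulators 13 of 29 genes could be followed. At mid-gestation 3 were higher and 1 lower than in luteolysis (8.16% of all genes were DEG), in luteal regression 2 were higher and 1 lower than in luteolysis (5.11%), and 2 were higher and 2 lower in luteolysis than after antigestagen (4.75%). INSL3 was higher at mid-gestation than in luteolysis (log2 ratio 3.55, SE 0.74, adjusted p = 0.0178) and lower in luteolysis than after antigestagen (-3.49, SE 0.74, adjusted p = 0.0306), so the antigestagen dogs combined low CYP17A1 with INSL3 levels (287 to 3187 CPM) that overlapped those of mid-gestation (789 to 2147 CPM). PTGES, a prostaglandin E synthase, was lower in luteal regression than in luteolysis (-3.25, SE 0.60, adjusted p = 0.0404) and higher in luteolysis than after antigestagen (1.90, SE 0.41, adjusted p = 0.0336). FSHR was lower (-1.08, SE 0.30, adjusted p = 0.0743) and INHBA, a subunit of activin and inhibin A, higher (1.42, SE 0.32, adjusted p = 0.0396) in luteolysis than after antigestagen. All these values are from the edgeR fit. In “mid-gestation over luteolysis” the median log2 ratio was 0.46 for receptors and regulators, 0.17 for cholesterol, 0.77 for androgens, oestrogens and corticosteroids, 3.28 for conjugation, 1.95 for P4 breakdown and -0.28 for oxysterols and bile acids, against -0.02 for all genes tested. In “luteal regression over luteolysis” these medians were 0.63, -0.92, 0.29, 2.79, 0.54 and -1.58, against -0.05 for all genes. The median for oxysterols and bile acids includes CYP27B1, which acts outside that route. STARD6, a cholesterol carrier and the one gene between cholesterol and P4 that could be followed, was not called in either (0.61 and 0.74).

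**Figure D4:**
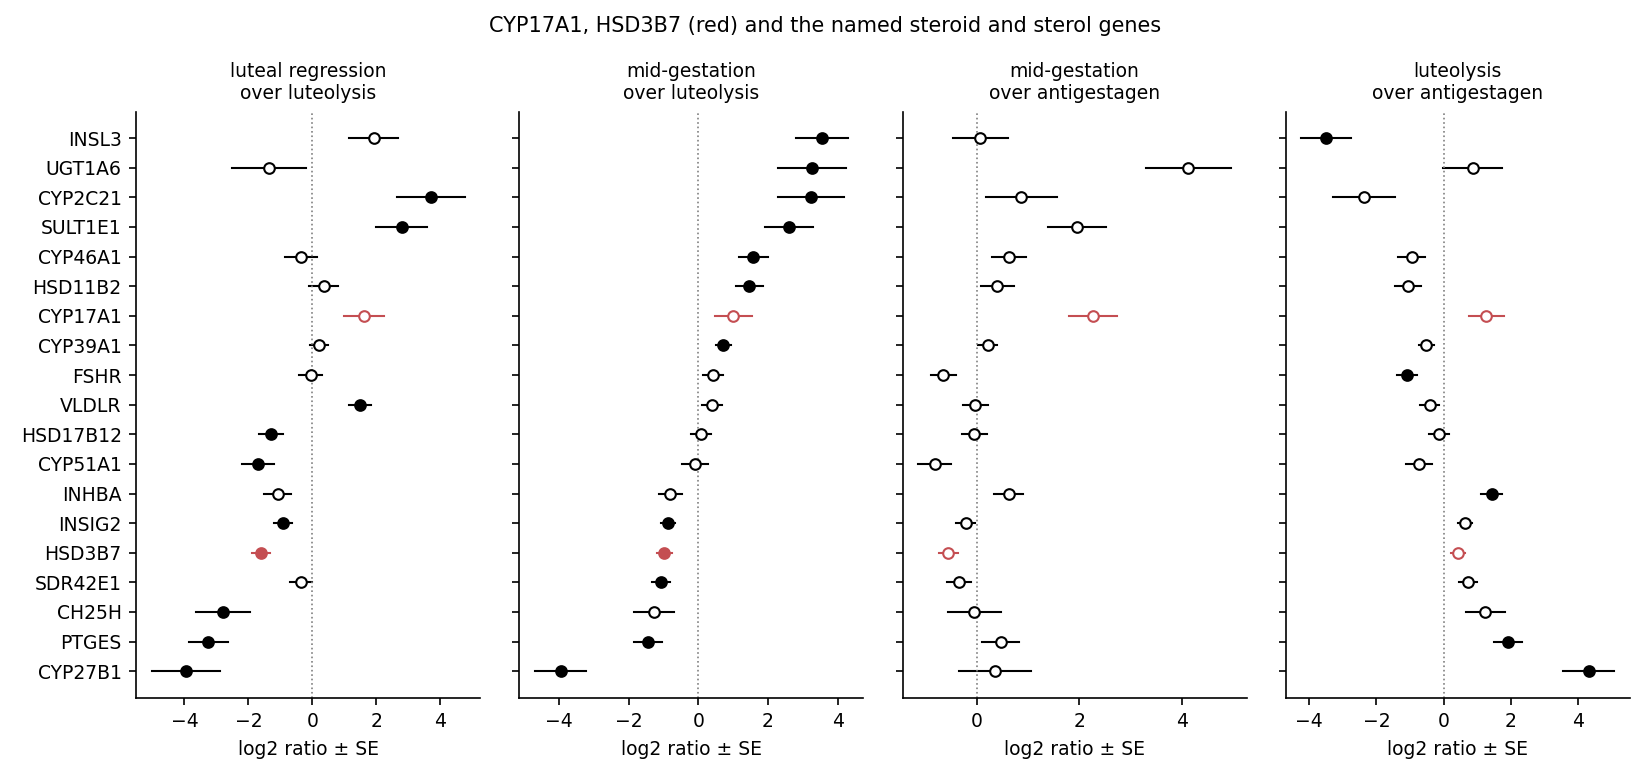
Log2 ratio (circle) ± SE (line) of CYP17A1 and HSD3B7 (red) and the named steroid and sterol genes in 4 contrasts, ordered by their value in “mid-gestation over luteolysis”. Filled circles are DEG, and SULT1E1 was not tested in the last panel. CYP17A1 is at or above 1.00 in all 4 panels without being a DEG, and HSD3B7 lies at -1.60 and -0.97 in both contrasts over luteolysis.

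The named genes whose log2 CPM followed CYP17A1 most closely over the 15 dogs, among 2966 compared, were CCNF, a cyclin that forms a ubiquitin ligase (Pearson r = 0.88), RIMS2, a protein of vesicle release (r = 0.88), HOXA13, a homeobox factor with under 2 CPM in all dogs (r = 0.86), TRMT10B (r = 0.85) and ADCK5 (r = 0.82). After group means were subtracted, CCNF (r = 0.85), SH2D6 (0.84), RIMS2 (0.82), TMEM82 (0.80) and CIT (0.78) came first, so CCNF and RIMS2 were in both sets. CCNF ranged from 0.828 to 2.40 CPM after antigestagen and from 2.20 to 4.12 CPM in the other groups. RIMS2 was highest in luteal regression (37.1 to 37.5 CPM), as was CYP17A1.

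HSD3B7 had closer companions. TAGLN2, an actin-binding protein, came first both over all dogs (r = 0.96) and after group means were subtracted (r = 0.92). Its mean was 423 CPM in luteolysis, 291 CPM after antigestagen, 238 CPM at mid-gestation and 131 CPM in luteal regression, the order of HSD3B7. SPRYD3 (r = 0.95), EIF4EBP1, the cap-dependent translation repressor (0.94), UBE2D3, a ubiquitin-conjugating enzyme (0.93), and CAPN2, a calcium-dependent protease (0.93), followed over all dogs. GMFG, found mainly in leukocytes (0.91), TXN, thioredoxin (0.90), RDH16, a retinol dehydrogenase (0.90), and MAP2K3, a p38 kinase activator (0.90), followed after group means were subtracted. These likenesses are descriptions over 15 dogs that share group and library composition, and the genes compared were listed by the study for differences on these dogs.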

How the data were processed

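CL mRNA of 15 dogs was sequenced as poly-A-enriched, single-end libraries made with an unstranded kit, 1 per dog. The authors aligned the reads to CanFam3.1 with STAR (2.5.1b in the submitters' processing notes), summarised them by Ensembl gene using featureCounts, and deposited raw, unfiltered counts for 23630 genes. The strand and multi-mapping settings of the counting are not given in the sources used here. The 3148 deposited counts from 10000 upward carry only 4 significant digits. The lists of DEG that accompany the paper were used only to pair identifiers with symbols (2970 of 3261 identifiers); their fold changes and p-values were not used.

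Groups were taken from the labelled condition, also for Nescafe, whose description carries another group number than its title and condition (mid-gestation). One more luteal regression dog of the study was not analysed here. Two-sided edgeR 4.0.16 quasi-likelihood tests (R 4.3.3, TMM, all 15 dogs, group as the only factor) were run on genes averaging 10 or more counts in 1 group or more (14922 genes, fewer per contrast), and p-values were adjusted by Benjamini-Hochberg within each contrast. DEG had p below 0.01 and adjusted p below 0.1. The SE is the log2 ratio divided by the square root of F, and the 95% interval uses the t quantile of the fit. Log2 CPM has a prior count of 2, and within-group correlations were tested with 100000 permutations within groups. Replicate dogs differed by a chi-squared of 32.1 to 261 per degree of freedom, far above sampling noise; no 2 libraries were alike within that noise. The tests were checked on simulated counts.

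Alternatives were DESeq2 1.42.0 with and without shrinkage, limma 3.58.1 (voom with quality weights), robust edgeR, 3 other scalings, 2 other filters, a stricter threshold, the compared groups alone and each dog left out. The genes and lists were chosen with earlier results of these data known. Named genes were both enzymes, the 5 named genes most like each by Pearson r over all dogs and after subtracting group means, and per list at most the 4 called genes of smallest p, plus SULT1E1. The check for single outlying dogs covered the enzymes and the list genes.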

Additional observations from a re-analysis of the deposited data

Results flagged for a closer look

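Of 38 sets of 5 dogs tested (both enzymes and the 17 named list genes, at mid-gestation and after antigestagen), 2 held a dog far from the other 4, both times Gold at mid-gestation, and about 1 in 20 such sets is expected to do so by chance. Gold had 72.7 CPM of CYP2C21 against 4.82 to 6.89 CPM in the other 4 dogs, and 8.56 CPM of CH25H against 0.820 to 2.83 CPM. The same dog had the highest CYP17A1 level of its group (809 CPM), although that level was not far enough from the others to stand out by this measure.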

How the results depend on the processing

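All settings named here were planned, and every log2 ratio of CYP17A1 and HSD3B7 in the 6 contrasts kept its sign in all of them. The calls of CYP17A1 depended on the test. DESeq2 called it in “luteal regression over luteolysis” (1.65 without and 1.09 with shrinkage), “mid-gestation over antigestagen” (2.27 and 1.79) and “luteal regression over antigestagen” (2.90 and 2.09), and with shrinkage in “luteolysis over antigestagen” (1.00). It also called HSD3B7 in “luteal regression over antigestagen” (-1.16 and -1.05) and, without shrinkage, in natural minus induced luteolysis (1.02). Limma-voom called CYP17A1 at 2.23 (over luteolysis) and 2.57 (over antigestagen) in luteal regression and at 1.71 in “mid-gestation over luteolysis”, and HSD3B7 at 0.80 in “luteolysis over antigestagen”, -0.65 in “luteal regression over mid-gestation”, -1.01 in “luteal regression over antigestagen” and 1.45 in natural minus induced luteolysis, while the latter difference of CYP17A1 turned to -0.18. With the compared groups alone, HSD3B7 lost its call in “luteal regression over luteolysis” (-1.60) and gained one in “luteal regression over mid-gestation” (-0.61).

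With each dog left out, HSD3B7 ranged from -1.72 to -1.26 in “luteal regression over luteolysis” (lost without Senta, Lissy or Mara, where the lone dog left in a group was assumed to vary like the other groups) and from -1.11 to -0.67 in “mid-gestation over luteolysis” (lost without Senta). In “luteal regression over antigestagen” CYP17A1 ranged from 2.59 to 3.34 and HSD3B7 from -1.26 to -1.03, both called without Amy and without Citir. The difference of HSD3B7 between natural and induced luteolysis ranged from 0.71 to 1.16 and was called without Amy. Of the 362 alternative values 333 kept sign and call. The cause of these changes was not tested.

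The number of DEG moved more than the ratios: from 754 to 1567 (DESeq2), 3646 (limma-voom), 197 (adjusted p below 0.05) and 0 (compared groups alone) in “luteal regression over luteolysis”, from 1197 to 3220, 583 and 422 (limma-voom, adjusted p below 0.05, compared groups alone) in “mid-gestation over luteolysis”, and from 687 to 1486, 2833, 268 and 3 in “luteolysis over antigestagen” by the same 4 alternatives as the first. Where edgeR called 0 genes, DESeq2 called 87 and limma-voom 18 in “mid-gestation over antigestagen”, 332 and 2741 in “luteal regression over mid-gestation” (770 with the compared groups alone), 920 and 2408 in “luteal regression over antigestagen”, and 495 and 2549 in natural minus induced luteolysis. With each dog left out, the numbers ranged from 0 (Lissy) to 1593 (Amy) in “luteal regression over luteolysis”, from 112 (Senta) to 2434 (Amy) in “mid-gestation over luteolysis” and from 6 (Senta) to 2169 (Amy) in “luteolysis over antigestagen”, and reached 114 and 684 without Amy in “luteal regression over antigestagen” and in natural minus induced luteolysis. Scaling by total count alone moved the median log2 ratio of all genes by 0.31 to 0.32 in the contrasts of luteal regression over luteolysis and over mid-gestation and by 0.28 over antigestagen. No paired analysis was possible because the labels carry no replicate numbers shared between groups and each dog belongs to 1 group. Values that moved by over 1.5 times without a change of call were, for CYP17A1, “luteolysis over antigestagen” (0.34 with limma-voom), “luteal regression over mid-gestation” (0.30 with shrinkage, 0.94 with total count alone) and natural minus induced luteolysis (0.21 with total count alone, 0.27 to 1.12 with a dog left out), and for HSD3B7, “luteal regression over mid-gestation” (-0.30 with total count alone), “mid-gestation over antigestagen” (-0.36 with limma-voom) and “luteolysis over antigestagen” (0.12 without Senta). The counting error of HSD3B7 in the 2 luteal regression dogs (3.58% and 3.59%) was about as large as their spread (CV 3.32%).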
